A study of Mus musculus with 6 samples.

Results

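Hepcidin and 9 further genes of hepatic iron sensing were examined in livers of mice lacking the long noncoding RNA Blnc1 in the liver and fed a NASH diet. The 10 genes, of 17460 gene symbols in the expression table, were Hamp, Hamp2, Bmp6, Id1, Smad7, Hfe, Tfr2, Tfrc, Slc40a1 and Tmprss6. They were chosen by name on the result for Hamp, the single gene past the adjusted threshold of 0.05 when knockout and control livers were compared with limma, and the other 9 were added for their known place around hepcidin. The comparison of the groups is therefore a description of these genes, with standard errors (SE) and intervals. Calls are named for them only beside the share called over all genes, and are not read as a test of the list. All 10 were listed in every liver and all 10 passed the filter on low values.

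Whole-liver polyA RNA was sequenced from 3 control and 3 liver-specific Blnc1 knockout (LKO) mice, labelled C57BL/6 and aged 9 months, after 24 weeks on the NASH diet D09100301, which contains fructose, trans fat and cholesterol. According to the study's methods, LKO mice were Cas9 transgenic animals injected in the tail vein with an adenovirus that carries a pair of guide RNAs against Blnc1, and control mice were Cas9 transgenic animals given a control adenovirus, named as GFP for the study's high-fat diet experiment. Both groups thus share the Cas9 transgene, the viral injection and the diet, and no chow-fed or uninjected liver is part of the comparison. Adenovirus given by this route reaches mainly hepatocytes, so the deletion is limited to transduced liver cells. Values are read counts that the authors scaled by liver-specific size factors (normalized read counts), and log2 fold changes are LKO minus control on log2(value + 1).

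Hepcidin, the product of Hamp, is a peptide hormone that hepatocytes release into blood. It binds ferroportin, the iron exporter encoded by Slc40a1, on enterocytes and macrophages and causes its loss from the membrane, so that less iron enters plasma. Iron loading raises Hamp transcription through BMP6, a ligand made mainly by liver sinusoidal endothelial cells, whose receptors on hepatocytes signal through SMAD proteins to Hamp, Id1 and Smad7, while HFE and transferrin receptor 2 relay the saturation of transferrin, matriptase-2 (Tmprss6) restrains the pathway, and interleukin 6 acts on Hamp through STAT3. Inside cells, iron regulatory proteins bind stem-loops in mRNAs, iron-responsive elements, which block translation when they lie in the 5′ UTR and protect the mRNA from decay when they lie in the 3′ UTR.

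The promoters of Hamp and its neighbour Hamp2 are shown because these neighbouring genes are nearly alike in sequence. Hamp values lay apart between the groups, while Hamp2 values overlapped. A link between these sequences and the values was not tested. Each run is the 250 bases before the RefSeq transcription start, 5′ to 3′ on the minus strand of chromosome 7 (RefSeq, GRCm38.p6), with matches to the core of the BMP-responsive element (GGCGCC) and to the STAT motif (TTCNNNGAA) in capitals. The window is chr7:30944030-30944279 for Hamp and chr7:30924182-30924431 for Hamp2, and the Hamp2 window lies in an intron of a longer GENCODE transcript of that gene.
Hamp: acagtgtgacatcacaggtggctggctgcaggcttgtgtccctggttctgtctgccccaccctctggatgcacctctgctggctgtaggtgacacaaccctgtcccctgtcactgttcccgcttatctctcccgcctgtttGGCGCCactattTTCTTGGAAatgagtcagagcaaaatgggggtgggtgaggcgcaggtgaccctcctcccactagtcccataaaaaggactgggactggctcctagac
Hamp2: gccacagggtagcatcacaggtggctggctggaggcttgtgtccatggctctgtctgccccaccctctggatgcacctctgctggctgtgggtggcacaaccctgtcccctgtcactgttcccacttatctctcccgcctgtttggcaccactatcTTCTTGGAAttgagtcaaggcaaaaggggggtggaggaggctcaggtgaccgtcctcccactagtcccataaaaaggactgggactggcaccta

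Of 253 aligned positions, 227 were identical between both promoters, or 89.7%. The BMP element core in Hamp lay 109 to 104 bases before the start, and the Hamp2 promoter held no copy of these letters, with the substitution G4A from Hamp to Hamp2 counted from 1 at the first base of the core. Both promoters held the STAT match TTCTTGGAA, 97 to 89 bases before the start in Hamp and 94 to 86 in Hamp2. Searched on both strands, GGCGCC occurred in 9.59% and TTCNNNGAA in 7.02% of 32851 mouse promoter windows of the same length. RefSeq windows were found for 6 of the 10 genes, and among the other members GGCGCC occurred in 1 of 2 windows of Tfrc, 89 to 84 bases before the start, while TTCNNNGAA occurred in none of the windows of Bmp6, Hfe, Tfr2 and Tfrc. These matches describe letters and were not tested as binding sites.

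Iron-responsive elements of a fixed pattern are shown for the members with a match and for the ferritin chains and Alas2. Such elements place these mRNAs under direct control by cellular iron. Each is a 27-base stretch of a GENCODE M21 mRNA (GRCm38), written as DNA with the 6-base loop in capitals, found as a loop of CAGTG plus any base but G between 5 upper stem pairs, an unpaired C and at least 4 of 5 lower stem pairs, with G-T pairs allowed.
Slc40a1, 5′ UTR, chr1:45925466-45925492, minus strand: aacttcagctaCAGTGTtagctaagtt
Tfrc, 3′ UTR, chr16:32631220-32631246, plus strand: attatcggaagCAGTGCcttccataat
Tfrc, 3′ UTR, chr16:32631599-32631625, plus strand: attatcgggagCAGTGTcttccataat
Tfrc, 3′ UTR, chr16:32631664-32631690, plus strand: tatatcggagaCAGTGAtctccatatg
Tfrc, 3′ UTR, chr16:32631711-32631737, plus strand: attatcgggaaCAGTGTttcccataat
Fth1, 5′ UTR, chr19:9982733-9982759, plus strand: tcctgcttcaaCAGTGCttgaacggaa
Ftl1, 5′ UTR, chr7:45459780-45459806, minus strand: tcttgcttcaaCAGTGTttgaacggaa
Alas2, 5′ UTR, chrX:150547459-150547485, plus strand: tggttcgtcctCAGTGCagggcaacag

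The same search over 15461 protein-coding genes of the table found such a stretch in the UTRs of 13 genes, or 0.0841%. Matches on chromosome 18 were dropped, though its genes are counted in the 15461. Of the 13 genes, 5 were members or genes of the iron lists described below. Slc40a1 and Tfrc were the 2 members with one. Elements that depart from this pattern would be missed.

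Livers had 65384969 to 89350181 reads on the listed genes, so counting error is small for every member. Alb, the hepatocyte albumin gene, took 5.06% to 5.98% of the values of a liver. Within a group, pairs of livers had a chi-square of 20.8 to 70.0 per degree of freedom, well above sampling noise, and each liver counts as 1 replicate. The labels do not say how the mice were bred or housed, so standard deviations (SD) measure the spread between these livers. SEs and intervals come from limma, which pulls the variance of each gene towards a trend over all genes. The ferritin gene Fth1, for example, had an SD of 1.45% of the mean in control and 1.26% in LKO livers. Its SE was 0.080 on the log2 scale. Blnc1 has no entry of its own in the table. RefSeq lists that name as a synonym of Paqr9, but the study treats Paqr9 as a separate gene adjacent to Blnc1. Paqr9 had 15156 to 18810 in control and 15663 to 20027 in LKO livers. The study reports that the guides left Paqr9 mRNA unaffected and reduced Blnc1 in liver and in fractionated hepatocytes. Loss of the target was not measured here. LKO liver 3 stood apart in neutrophil markers, as given below. An exact permutation test on 3 against 3 livers cannot give a p below 0.10.

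Hamp was higher in every LKO liver than in any control liver. The 3 control livers had 14250, 14791 and 13198 normalized read counts and the 3 LKO livers had 24524, 23412 and 24545. The spread within a group was 5.75% of the mean (CV) in controls and 2.68% in LKO. The means were 14080 ± 810 (SD, n = 3) and 24160 ± 648 (SD, n = 3), a ratio of 1.72 and a log2 fold change of 0.78 with an SE of 0.061 and a 95% interval of 0.64 to 0.92. In this comparison limma called 0.00578% of 17297 genes, and that single call is Hamp. Nothing is read from the call, because it is the value that chose the list. The separation of the groups and the interval rest on that same choice, so they may overstate the difference. The summed level of 6 hepatocyte markers, which includes Alb, ranged from 5409145 to 5938759 in control and from 5300193 to 6393457 in LKO livers and overlapped between groups. In whole-liver RNA, more or fewer cells of a type and more or less RNA per cell cannot be told apart.

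Hamp2, a hepcidin-like gene that lies beside Hamp in the mouse genome, did not follow Hamp. The control livers had 1798, 670 and 3103 normalized read counts and the LKO livers 1598, 1407 and 413. The highest liver was a control and the lowest an LKO, with a 7.52-fold range over the 6 livers, and the groups overlapped. The log2 fold change was -0.67 with an SE of 0.62 and a 95% interval of -2.08 to 0.74, which includes 0 and reaches into the interval of Hamp at its upper end. Hamp2 was the most variable of the 10 genes, with a CV of 65.6% in controls and 55.9% in LKO.

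Hamp2 made up 11.2%, 4.33% and 19.0% of the sum of both genes in control livers and 6.12%, 5.67% and 1.65% in LKO livers. The sum itself was 16048, 15461 and 16301 in control and 26122, 24819 and 24958 in LKO livers, so the groups remained apart, with a log2 fold change of 0.67 and an SE of 0.054. The transcripts of both genes were identical at 388 of 420 aligned positions, or 92.4%, and shared an exact stretch of up to 87 bases. How reads that match both genes were assigned is not given in the sources used here, so the split between Hamp and Hamp2 is less certain than their sum.

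**Figure D1:**
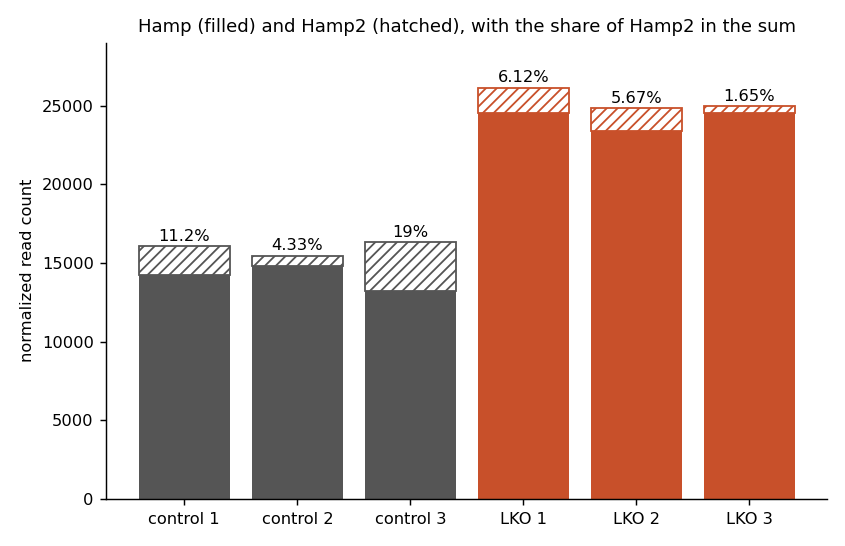
Normalized read counts of Hamp (filled) and Hamp2 (hatched, stacked) in each of 3 control and 3 LKO livers, with the share of Hamp2 in the sum above each bar. The summed bars are 15461 to 16301 in control and 24819 to 26122 in LKO livers, and the Hamp2 share ranges from 1.65% to 19.0%.

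**Figure D2:**
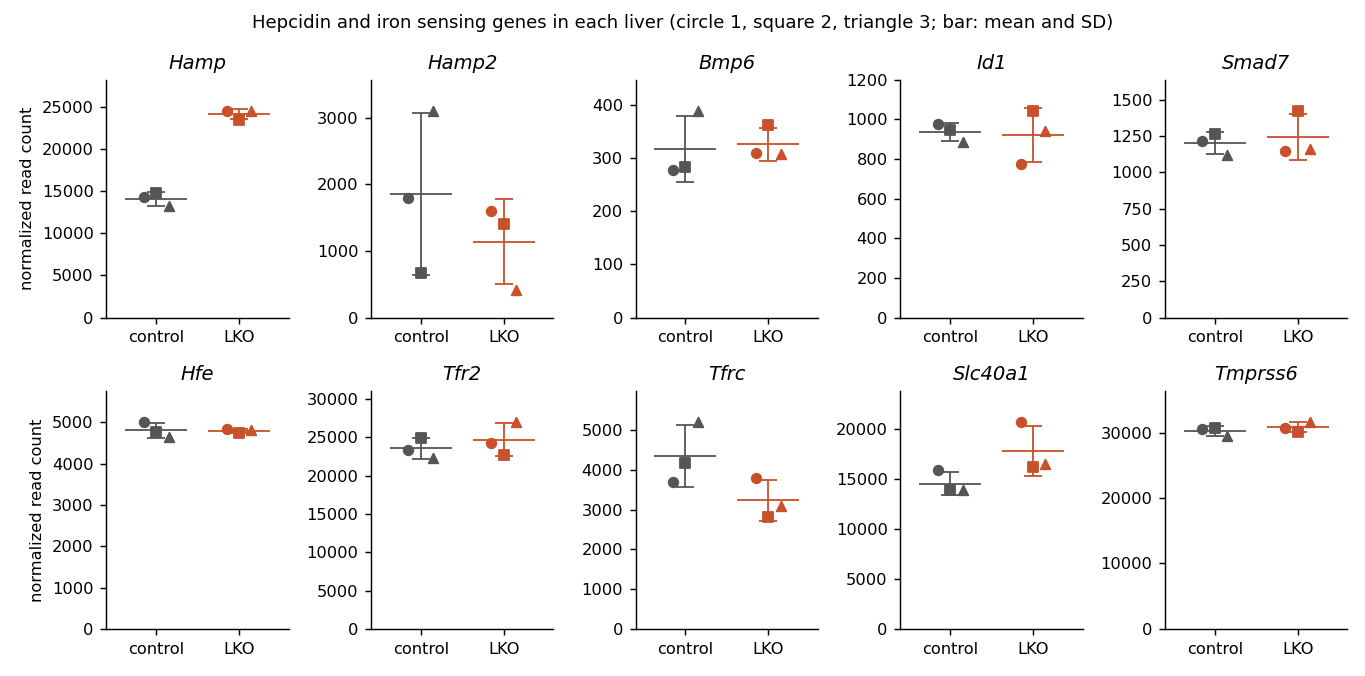
Normalized read counts of the 10 genes, 1 panel per gene with its own axis from 0, with 1 point per liver (grey control, orange LKO) and bars for the mean and SD of 3 livers. Only Hamp and Slc40a1 have all 3 LKO points above all 3 control points, and no gene has all 3 below.

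The ligand and 2 target genes of the BMP arm had overlapping values in control and LKO livers. Bmp6, the ligand, had 278, 284 and 389 normalized read counts in control and 309, 362 and 307 in LKO livers. These values overlapped, and the log2 fold change was 0.054 with an SE of 0.15 and a 95% interval of -0.28 to 0.39. The summed level of 6 markers of liver sinusoidal endothelial cells, the main source of BMP6, was 21785 to 23268 in control and 21229 to 22032 in LKO livers. Of these markers, 2 had a higher and 4 a lower mean in LKO livers. The lower ones include Lyve1, with a log2 fold change of -0.57 (SE 0.16) and overlap, and Pecam1, with -0.17 (SE 0.055) and no overlap. The part of these cells in the Bmp6 values was not tested.

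Id1, an inhibitor of DNA binding whose transcription responds directly to BMP signals, had 976, 949 and 887 in control and 777, 1044 and 942 in LKO livers. The LKO group held both the lowest and the highest liver. Its log2 fold change was -0.035 (95% interval -0.28 to 0.21). Smad7, which encodes an inhibitory SMAD induced by the same signals, had 1215, 1266 and 1121 in control and 1146, 1423 and 1161 in LKO livers, again overlapping. Its log2 fold change was 0.046 (95% interval -0.17 to 0.27).

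The sensors of transferrin iron and the protease that restrains them overlapped between groups and varied little. Hfe, which encodes an MHC class I-like protein that binds transferrin receptors, had 5003, 4771 and 4635 normalized read counts in control and 4826, 4729 and 4810 in LKO livers. The LKO livers lay within the range of the controls, and the log2 fold change was -0.0038 (95% interval -0.12 to 0.11). Tfr2, the second transferrin receptor and a hepatocyte gene, had 23392, 24936 and 22269 in control and 24292, 22696 and 26974 in LKO livers. The groups overlapped, and the log2 fold change was 0.065 (95% interval -0.11 to 0.24). Tmprss6, the serine protease that cleaves components of the BMP receptor complex, had 30574, 30739 and 29421 in control and 30685, 30058 and 31593 in LKO livers. Its 6 livers differed by a factor of 1.07 at most, and the log2 fold change was 0.025 (95% interval -0.10 to 0.15).

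Tfrc, the transferrin receptor through which most cells take up iron, had a lower mean in LKO livers. Its normalized read counts were 3686, 4175 and 5202 in control and 3801, 2811 and 3081 in LKO livers. The groups overlapped because LKO liver 1 lay above control liver 1, while the other 2 LKO livers were below every control. The means were 4354 ± 774 (SD, n = 3) and 3231 ± 512 (SD, n = 3), a ratio of 0.742 and a log2 fold change of -0.43 with an SE of 0.14 and a 95% interval of -0.75 to -0.11. The value was -0.29 without control liver 3 and -0.55 without LKO liver 1.

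Slc40a1, the iron exporter that hepcidin acts on, was higher in all 3 LKO livers than in any control liver. Its normalized read counts were 15859, 13831 and 13852 in control and 20656, 16207 and 16485 in LKO livers. The closest livers, control 1 and LKO 2, were near each other, and LKO liver 1 lay above the rest. The means were 14514 ± 1165 (SD, n = 3) and 17783 ± 2492 (SD, n = 3), a ratio of 1.23 and a log2 fold change of 0.29 with an SE of 0.10 and a 95% interval of 0.056 to 0.52. Without LKO liver 1 the log2 fold change was 0.17. Slc40a1 is expressed by macrophages as well as hepatocytes, and all 6 Kupffer cell markers had higher means in LKO livers, with a summed level of 38675 to 44937 in control and 43088 to 52174 in LKO livers. Clec4f, Timd4 and Marco, 3 of these 6 markers, were highest in LKO liver 1, as Slc40a1 was. Vsig4, Cd5l and Adgre1, the other 3, were highest in LKO liver 3. The summed level was highest there too, at 52174 against 47553 in LKO liver 1. Their part in the Slc40a1 difference was not tested.

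Fth1, Ftl1 and Alas2 also matched the iron-responsive element pattern. Fth1, the ferritin heavy chain, had 149015, 146201 and 144841 in control and 138986, 136693 and 140130 in LKO livers. Every LKO liver lay below every control, by a small margin, with a log2 fold change of -0.082 (SE 0.080). Ftl1, the ferritin light chain, had 176103, 167828 and 153834 in control and 157162, 165249 and 154333 in LKO livers, which overlapped. Alas2, the erythroid enzyme that starts haem synthesis, had 6841, 7630 and 9257 in control and 9682, 7206 and 7601 in LKO livers, which overlapped too. Of the 5 genes that matched this pattern, the LKO mean was higher for Slc40a1 and Alas2 and lower for Tfrc, Fth1 and Ftl1. Elements in the 5′ UTR act on translation, which these RNA values do not measure.

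Of the 10 genes, 6 had a higher and 4 a lower mean in LKO livers, and the median log2 fold change was 0.035, or 0.025 over the 9 genes without Hamp. Over all 17297 genes tested, 49.6% had a higher mean and the median was -0.00099. All 3 LKO livers lay above all 3 control livers for 2 of the 10 genes, Hamp and Slc40a1, against 5.35% of all genes, and below them for 0 of the 10, against 5.28% of all genes. At an unadjusted p under 0.05 in limma, Hamp and Slc40a1 were higher, against 2.94% of all genes, and Tfrc was lower, against 2.74%. DESeq2 on the recovered reads called 84 genes, 0.538% of those with an adjusted p, and Hamp was the 1 member among them, so that Tfrc and Slc40a1 were called by neither method after adjustment. These shares are given for reading only, since the list was chosen on this contrast.

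**Figure D3:**
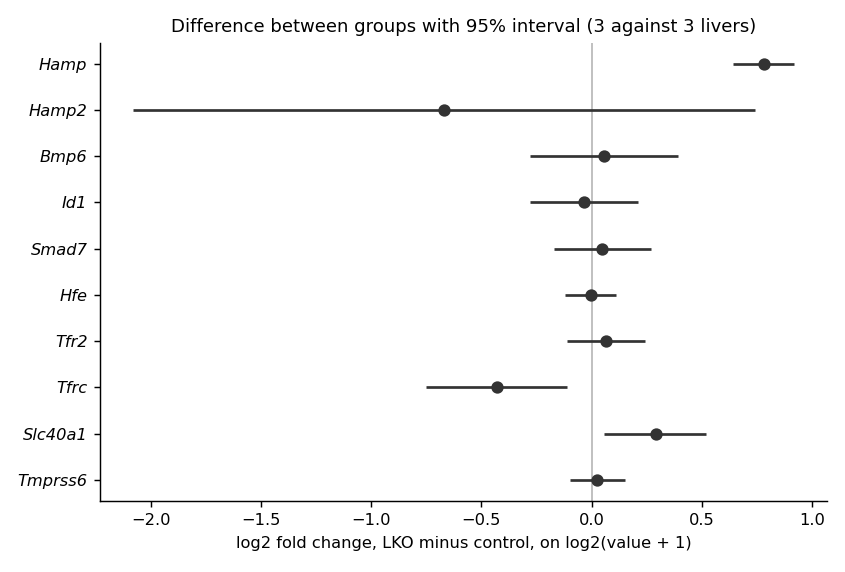
Log2 fold change of each of the 10 genes, LKO minus control on log2(value + 1), as a point with its 95% interval from limma over 3 control and 3 LKO livers. The interval of Hamp runs from 0.64 to 0.92, those of Slc40a1 and Tfrc lie on opposite sides of 0, and that of Hamp2 is the widest, from -2.08 to 0.74.

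Levels of different genes were compared as normalized read counts per kilobase of exon (GENCODE M21). Exon length counted every base in any annotated exon of a gene, such as 9000 for Slc40a1 and 583 for Hamp2. The Hamp2 transcript compared above has 420 bases, so values per kilobase depend on which exons are annotated. In control livers Hamp was the highest, at 34340 ± 1975 per kilobase (SD, n = 3), and no other member reached its range. Tmprss6 followed at 9004 ± 214 and Tfr2 at 5427 ± 309. Hamp2 had a mean of 3185 and a range of 1149 to 5322, which overlapped the ranges of Tfr2, Slc40a1 and Hfe, so its place in the order is not fixed by 3 livers. Slc40a1 had 1613 ± 129 and Hfe 1345 ± 52.0, and these 2 ranges did not overlap. Id1 at 808 ± 39.3 and Tfrc at 704 ± 125 overlapped each other. Smad7 had 266 ± 16.3, and Bmp6 was the lowest at 81.3 ± 16.0.

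In LKO livers Hamp had 58927 ± 1581 per kilobase. The order of the means was otherwise the same except that Slc40a1, at 1976 ± 277, stood above Hamp2, at 1955 ± 1092, a difference far smaller than the spread of either. Tfrc, at 522 ± 82.8, no longer overlapped Id1, at 794 ± 116.

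The wider iron pathway was read from 11 lists of genes grouped by function, 122 symbols of which 112 were tested. Limma, DESeq2 and edgeR each called 0 of the 112 after adjustment over all genes. At an unadjusted p under 0.05 in limma, 6 were higher and 8 lower, against 2.94% and 2.74% of all genes. LKO livers lay wholly above controls for 7 and wholly below for 14 of the 112, against 5.35% and 5.28% of all genes, and the median log2 fold change was 0.00045. In each list, genes of smallest unadjusted p are named below with their values.

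**Figure D4:**
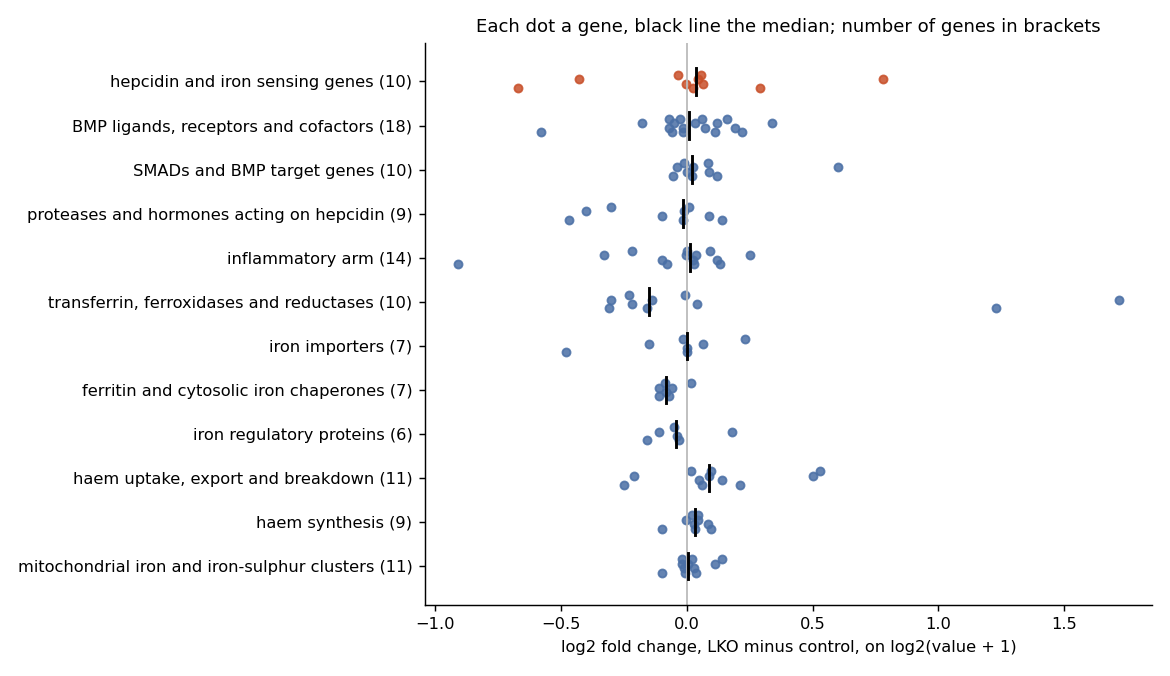
Log2 fold change, LKO minus control on log2(value + 1), of the 10 genes (orange) and of each gene of the 11 lists (blue), with the list median as a black line and the number of genes in brackets. List medians lie between -0.15 and 0.087, and no gene of the lists passed the adjusted threshold.

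Among 18 BMP ligands, receptors and cofactors, 9 had a higher and 9 a lower mean in LKO livers. Bmper, a secreted protein that binds BMPs and modulates their access to receptors, had 148, 145 and 159 in control and 94.0, 105 and 103 in LKO livers. The groups were well separated, with a log2 fold change of -0.58 and an SE of 0.13, but the adjusted p in limma was 0.548. Bmp7, another BMP ligand, had 383, 340 and 325 in control and 417, 396 and 522 in LKO livers, a log2 fold change of 0.34 (SE 0.13), and 0.22 without LKO liver 3. Bmp4, also a ligand, had 310, 372 and 348 in control and 390, 379 and 429 in LKO livers, without overlap and with a log2 fold change of 0.22 (SE 0.11). Fkbp1a, which binds the type I receptors and keeps them silent, had a log2 fold change of -0.18 (SE 0.081), and LKO liver 1, at 7603, was the lowest of the 6, with -0.086 without it. Hfe2, which encodes the BMP co-receptor hemojuvelin and is named after its values were seen, had 8877, 8797 and 8459 in control and 8175, 8347 and 8324 in LKO livers, a log2 fold change of -0.073 (SE 0.048).

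Among 10 SMADs and other BMP target genes, 7 had a higher and 3 a lower mean, and LKO livers lay apart from controls for 0 of the 10, a count near the shares of 5.35% above and 5.28% below over all genes. Their median log2 fold change was 0.022. Smad9, a receptor-regulated SMAD, had 548, 811 and 379 in control and 674, 685 and 1277 in LKO livers, an overlapping spread with a log2 fold change of 0.60 (SE 0.31), which was 0.30 without LKO liver 3 and 0.33 without control liver 3. The log2 fold changes of Id2, Id3 and Atoh8, which encode transcription regulators responsive to BMP, were 0.12, 0.088 and 0.085, each with an SE of 0.11.

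Of 9 proteases and hormones that act on hepcidin or its receptors, 3 had a higher and 6 a lower mean. Gdf15, a stress-induced member of the TGF-beta family, had 977, 923 and 1228 in control and 649, 727 and 891 in LKO livers. All 3 LKO livers were below the controls, with a log2 fold change of -0.47, an SE of 0.14 and an adjusted p of 0.739 in limma. Fgl1, a hepatokine that binds BMP ligands, had 33443, 43549 and 27964 in control and 23287, 28993 and 26252 in LKO livers, a log2 fold change of -0.40 (SE 0.15) with overlap, and -0.23 without control liver 2. Pcsk7, a proprotein convertase, had a log2 fold change of 0.14 (SE 0.057) without overlap. Fam132b, the older symbol of the erythroid hormone erythroferrone, had values of only 18.4 to 30.9 in the 6 livers.

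In the inflammatory arm, 8 of 14 genes had a higher and 6 a lower mean in LKO livers. Il6 itself was barely detected, with 7.46, 4.26 and 16.0 in control and 4.76, 1.88 and 5.85 in LKO livers. Cebpb, a transcription factor of the acute phase response, had 4518, 4912 and 5073 in control and 3737, 4186 and 4563 in LKO livers, a log2 fold change of -0.22 (SE 0.081) with a narrow overlap, and -0.14 without LKO liver 1. Jak1, a kinase of the interleukin 6 receptor, had a log2 fold change of -0.10 (SE 0.049), with LKO livers below all controls. Inhbb, the activin B subunit, had a log2 fold change of -0.33 (SE 0.17) and ranged from 361 to 603 in LKO livers, with -0.15 without LKO liver 1 and -0.52 without LKO liver 3.

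Of 10 genes for transferrin, ferroxidases and reductases, 3 had a higher and 7 a lower mean, with a median log2 fold change of -0.15 and none past the adjusted threshold. Trf, which encodes transferrin and is named after its values were seen, had 1494394, 1413955 and 1481088 in control and 1255267, 1302800 and 1178893 in LKO livers. The groups did not overlap, with a log2 fold change of -0.23 and an SE of 0.20, and the adjusted p was 0.971 in limma and 0.0759 with DESeq2. Cp, the ferroxidase ceruloplasmin, had 145305, 146217 and 134587 in control and 133686, 131913 and 120836 in LKO livers, a log2 fold change of -0.14 (SE 0.088). Steap2, a metalloreductase, had a log2 fold change of -0.31 (SE 0.11) and no overlap, and -0.18 without LKO liver 3. Cybrd1, the duodenal ferric reductase, was near the detection limit, with 2.80, 2.13 and 5.33 in control and 7.14, 8.46 and 11.7 in LKO livers.

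Ltf, lactoferrin of neutrophil granules, had 68.1, 56.5 and 20.2 in control and 30.9, 132 and 714 in LKO livers, so LKO liver 3 set its mean. The 4 listed neutrophil markers together had 388.8 to 767.3 in control livers and 441.5, 929.2 and 4468 in LKO livers 1, 2 and 3. Without LKO liver 3 the log2 fold change of Ltf was 0.57 in place of 1.72.

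Among 7 iron importers, Lcn2, a siderophore-binding protein, had 16325, 17679 and 12175 in control and 9593, 13576 and 9961 in LKO livers, a log2 fold change of -0.48 (SE 0.16) with overlap. Slc11a2, the divalent metal transporter DMT1, had 3805, 4237 and 3824 in control and 3549, 3585 and 3558 in LKO livers, with all LKO livers lower and a log2 fold change of -0.15 (SE 0.058). The zinc and iron transporter Slc39a8 had a log2 fold change of 0.065 (SE 0.10), and the ferritin receptor Scara5 one of 0.23 (SE 0.34).

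Of 7 genes for ferritin and cytosolic iron chaperones, 6 had a lower mean, with log2 fold changes from -0.11 to 0.018. The iron chaperone Pcbp1 had a log2 fold change of -0.11 (SE 0.069), and the cluster-handling proteins Bola2 and Glrx3 had -0.073 and -0.11. Of 6 genes for iron regulatory proteins and hypoxia factors, 5 had a lower mean. Epas1, which encodes HIF2-alpha, had 17872, 18730 and 18201 in control and 15264, 17002 and 16978 in LKO livers, a log2 fold change of -0.16 (SE 0.061). Ireb2, iron regulatory protein 2, had a log2 fold change of 0.18 (SE 0.10) with overlap, and Hif1a and Arnt had -0.11 and -0.052.

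Of 11 genes for haem uptake, export and breakdown, 9 had a higher mean. Hmox1, the inducible haem oxygenase, had 4198, 4162 and 3438 in control and 4925, 4612 and 8018 in LKO livers. All LKO livers were above the controls, with a log2 fold change of 0.53 and an SE of 0.19, and the adjusted p was 0.831 in limma. LKO liver 3 was far above the rest, and without it the log2 fold change was 0.28. Abcg2, a porphyrin exporter, had a log2 fold change of 0.21 (SE 0.084), and Blvrb, a biliverdin reductase, one of 0.14 (SE 0.074). Hp, the haemoglobin-binding plasma protein haptoglobin, had 376201, 376712 and 354099 in control and 285741, 346194 and 300032 in LKO livers, all LKO livers lower, with a log2 fold change of -0.25 (SE 0.12).

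The 9 genes of haem synthesis stayed within log2 fold changes of -0.098 and 0.096, with 0 of 9 apart between groups, again near the shares of 5.35% and 5.28% over all genes. Among those of smallest p, Urod and Cpox, which act in the middle of the pathway, had 0.082 and 0.096, Ppox had 0.044, and Alas1, the rate-limiting enzyme in hepatocytes, had -0.098. The genes of mitochondrial iron and iron-sulphur clusters had a median log2 fold change of 0.005. The mitochondrial iron importers Slc25a37 and Slc25a28 were higher in all LKO livers, with log2 fold changes of 0.14 (SE 0.057) and 0.11 (SE 0.061). The assembly protein Isca1 had 0.037.

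Markers of other liver cells are given for the comparison with Slc40a1, Tfrc, Hmox1 and Ltf. Among the Kupffer cell markers, Marco had 32.6, 87.4 and 23.4 in control and 794, 95.8 and 509 in LKO livers, and Vsig4 had 1296, 2803 and 1504 in control and 3432, 2640 and 5249 in LKO livers. Clec4f and Cd5l, also markers of these cells, had log2 fold changes of 0.46 and 0.023. Of 7 red cell markers 3 were listed, and their sum, most of it Alas2, was 6916 to 9276 in control and 9786, 7306 and 8103 in LKO livers, which overlapped. Slc4a1 was highest in LKO liver 3, at 389, while Alas2 was highest in LKO liver 1. The 6 stellate cell markers summed to 58646 to 61001 in control and 55059 to 62564 in LKO livers, and the 6 lymphocyte markers to 866.2 to 1182 and 1036 to 1096. None of the listed markers was at 0 in every liver, and none passed the adjusted threshold in limma. The part of these cells in the values of Slc40a1, Tfrc, Hmox1 and Ltf was not tested.

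**Figure D5:**
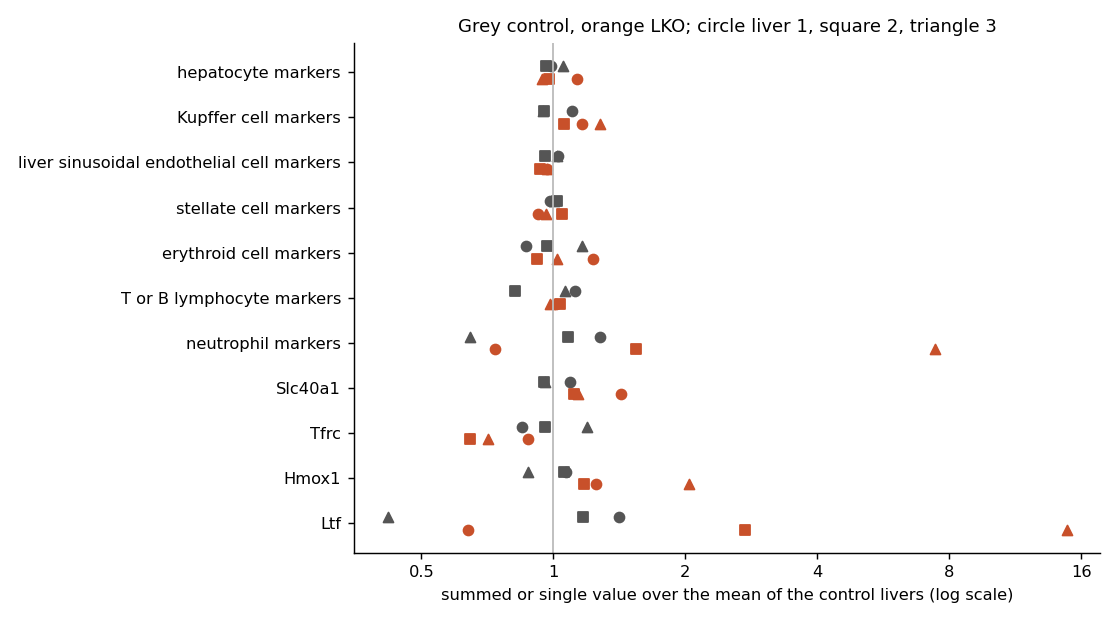
Summed values of the marker lists and single values of Slc40a1, Tfrc, Hmox1 and Ltf in each liver, divided by the mean of the control livers, on a log axis (grey control, orange LKO, with the symbol giving the liver number). LKO liver 3, the orange triangle, stands far to the right for neutrophil markers, at 4468 against 388.8 to 767.3 in controls, and for Ltf.

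As a description over the 6 livers, with no test, 12487 genes of mean value 100 or more were ranked by the Pearson correlation of log2(value + 1) with Hamp. The 6 points share 2 groups, so any gene with separated groups ranks high. The 5 most alike were Limd1 (r = 0.998), Gm11974 (r = 0.993), 5430416N02Rik (r = 0.989), 2410089E03Rik (r = 0.986) and Nabp2 (r = 0.981). Limd1, for example, had 3549, 3587 and 3467 in control and 3961, 3936 and 3971 in LKO livers, a far smaller difference than that of Hamp, with a ratio of 1.12. The 5 most opposed were Cdh5 (r = -0.996), Bmper (r = -0.991), Mest (r = -0.986), Tob2 (r = -0.986) and Ptpn9 (r = -0.982). Cdh5, the endothelial cadherin, had 3342, 3291 and 3412 in control and 3016, 3049 and 3020 in LKO livers. Among the other members, the correlation with Hamp was 0.76 for Slc40a1, 0.50 for Tmprss6, 0.45 for Tfr2, 0.20 for Smad7, 0.03 for Bmp6, 0.02 for Hfe, -0.14 for Id1, -0.44 for Hamp2 and -0.76 for Tfrc.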

How the data were processed

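Values came from 1 table with 1 column per liver. The submitters' processing notes name FastQC, STAR, HTSeq, DESeq2 and the build mm10. The deposited signal is the authors' read count per gene after division by size factors of the livers, with no length correction. Dividing each value by that of 1 read gave whole reads for 100% of values, to within 0.01. The table lists 23 symbols in the form of dates, which were kept. Its columns name wild-type and knockout livers by number.

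limma 3.58.1 (R 4.3.3; lmFit, eBayes with trend) was fitted to log2(value + 1) over the 17297 genes that reached 1 in 3 or more livers, without covariates, with Benjamini-Hochberg adjustment over these genes and a threshold of 0.05. Alternatives were edgeR 4.0.16 (quasi-likelihood), DESeq2 1.42.0 and voom on recovered reads, which called 2, 84 and 1 genes, library totals as scaling, a pseudocount of 0.1, other filters, a replicate block, each liver left out, and Hamp with Hamp2 summed. The fits were tested on simulated data.

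The genes and lists were chosen with earlier results of these data known. Genes named are the 10 members, the 4 of smallest unadjusted p per list, and the 5 of highest and 5 of lowest correlation with Hamp; Hfe2 and Trf and single markers were named after their values were seen. The log2(value + 1) scale understates changes of low genes. Gene models came from GENCODE M21, promoters from RefSeq. The authors' own fold changes and p-values were not used here. Sequences on chromosome 18, where Smad7 lies, are not printed. Some genes of the lists are not reported here.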

Additional observations from a re-analysis of the deposited data

How the results depend on the processing

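The direction of the Hamp difference was kept in every setting run, but its call was not. For Hamp alone the log2 fold change was 0.73 to 0.82. The number of genes called was 1 with limma, 84 with DESeq2, 2 with edgeR, 2 with no filter on low values, and 0 with a replicate block, where the 10 genes had 0 calls too and the adjusted p of Hamp was 0.0758. The same-numbered livers did not deviate together over genes (correlations of -0.08, -0.01 and -0.12). With 3 livers per group these correlations cannot settle whether the mice were paired, and the labels do not say. Summing Hamp and Hamp2 gave a log2 fold change of 0.67 in place of 0.78. Leaving out each liver in turn gave 0 to 13 calls over all genes, 0 to 1 among the 10 genes, and Hamp at 0.73 to 0.82. Hamp passed the threshold without LKO liver 1, LKO liver 2 or control liver 2, and did not pass without control liver 1 (adjusted p = 0.186), control liver 3 (0.0528) or LKO liver 3 (0.0724), all by limma. The cause was not tested, beyond each of these fits having 1 liver fewer.

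No gene of the iron lists was called in any setting. Of the named list genes, the sign turned for Scara5 without control liver 3 (-0.079) or LKO liver 3 (-0.058; range -0.079 to 0.59), for Slc39a8 without LKO liver 1 (range -0.044 to 0.13) and for Cpox without LKO liver 1 (range -0.0011 to 0.27). Over the livers left out, Hamp2 ranged from -1.27 to -0.049, Tfrc from -0.55 to -0.29 and Slc40a1 from 0.17 to 0.35, while Bmp6 (-0.032 to 0.21), Id1 (-0.13 to 0.082), Smad7 (-0.055 to 0.10), Hfe (-0.029 to 0.026) and Tfr2 (-0.0016 to 0.12) took either sign. Leaving out 1 liver also moved further values by over 1.5 times without turning their sign. Among them were those of Id2, Id3, Atoh8, Fam132b, Il6, Slc11a2, Pcbp1, Glrx3, Epas1, Ireb2, Hif1a and Arnt. Abcg2, Blvrb, Alas1, Urod, Ppox, Isca1 and the member Tmprss6 were others. Depth limits the values of Cybrd1, Il6 and Fam132b, which rest on few reads.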
